A study of Mus musculus with 2 samples.

Results

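The collagen genes of C2C12 nuclei are described here, gene by gene and by class. C2C12 is a mouse myoblast line, and 1 library came from nuclei in which yeast poly(A) polymerase (yPAP) had added tails to RNA in place (in situ polyadenylated), at 37 °C for 25 min. The other library came from nuclei of the same line that were handled similarly without that step (standard) and counted once in wash buffer. The in situ polyadenylated nuclei were also washed in suspension buffer, pelleted again and resuspended. The enzyme, the warm incubation and these added steps thus cannot be told apart. Both sets of nuclei had been fixed in methanol, and 3300 nuclei were loaded for each library. The members were all genes whose symbol has the form Col, a number, a and a number, which gave 44 of 55414 genes. By textbook class, 11 are fibrillar, 6 are the type IV chains of basement membranes and 27 are other collagens. There was 1 library per group, so no test was possible, and all intervals given are exact 95% intervals of counting error only.

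Collagens are the main structural proteins of the extracellular matrix. In the fibrillar collagens, a long uninterrupted helix of intertwined chains packs into fibrils, whereas the helix of type IV is broken at many points and folds into a flexible sheet beneath cells. Glycine, whose codons start with GG, recurs at a fixed place in each residue triplet of the helix. In skeletal muscle, fibroblasts supply most fibrillar collagen and type IV surrounds each fibre, and cultured myoblasts also make collagens.

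The class difference could be read in the coding sequence, here the longest open reading frame of each member in the GENCODE M39 transcripts, which had the annotated coding length for 40 of 44 members. In the stretches below, each of 81 nt, the glycine codon that opens each triplet of codons is in capitals. The first 3 open the longest run of such triplets in 3 of the most counted collagens. The fourth line is the end of the longest run of Col4a1, shown for the break that follows its last 6 triplets.
Col1a2: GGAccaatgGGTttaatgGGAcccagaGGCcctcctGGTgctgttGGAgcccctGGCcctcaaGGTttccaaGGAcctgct
Col1a1: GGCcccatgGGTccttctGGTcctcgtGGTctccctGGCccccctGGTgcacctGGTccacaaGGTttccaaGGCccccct
Col3a1: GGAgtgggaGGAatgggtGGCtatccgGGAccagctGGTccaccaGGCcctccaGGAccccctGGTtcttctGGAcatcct
Col4a1: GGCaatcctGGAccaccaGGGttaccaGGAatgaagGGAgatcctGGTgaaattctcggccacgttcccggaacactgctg
The longest run was 339 triplets in Col1a2, 338 in Col1a1 and 344 in Col3a1. Over the 11 fibrillar genes it ranged from 216 to 344 with a median of 338, and Col24a1 (216) and Col27a1 (217) were the shortest. Over the 6 type IV genes the longest run was 39 to 66 triplets, and each gene held 22 to 27 separate runs of at least 5 triplets, against 2 or 3 in the fibrillar genes. The 27 other collagens had longest runs of 23 to 113 triplets.

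After the filter of the study's methods (over 750 kallisto UMIs, unique molecular identifiers, and under 5% mitochondrial), 1335 in situ polyadenylated nuclei (1974403 UMIs) and 1123 standard nuclei (1382984 UMIs) remained, with medians of 1088 and 996 UMIs and 0 barcodes in common. Protein-coding genes held 29.1% of the UMIs of the in situ polyadenylated nuclei and 55.5% of those of the standard nuclei. Levels scaled to the library total (CPM) were lower after in situ polyadenylation for most protein-coding genes. Over the 2114 such genes that reached 50 UMIs on both sides, the median log2 CPM ratio was -1.19, and ratios are also given relative to that median gene. Of the 10 myoblast markers listed, all had at least 1 UMI in each library, with 886 UMIs in all in the in situ polyadenylated and 1371 in the standard nuclei, led by Des (360 and 636). Cdh15 had 42 and 96 of them, Tnnt2 136 and 131, Myod1 15 and 13, and Chrna1 8.04 and 18.1. Few UMIs fell on Myf5 (6 and 9), Pax7 (5 and 4) and Myog (3 and 2). The fibroblast list summed to 48 and 98 UMIs, of which Ly6a gave 29 and 55 and Pdgfra 4 and 15, with Dcn at 3 and 1 and Lum and Dpt at 0 in both libraries. The endothelial list summed to 12 and 37 UMIs, of which Pecam1 gave 10.1 and 35.0, and Cdh5 was at 0. The immune list summed to 1 and 11 UMIs, with Csf1r, Adgre1, Cd3e and Lyz2 among those at 0. The part of such cells in the collagen values was not tested. Of the 44 members, 16 overlap another annotated gene on their own strand, among them Col1a2, Col3a1, Col4a1, Col4a5, Col5a2, Col6a3, Col7a1 and Col27a1, so their counts may include reads of that gene.

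Collagen transcripts were a small share of the RNA of both libraries, and type I, III and V fibrillar chains made up most of it. In the kallisto matrix, 6012 of the UMIs of the in situ polyadenylated nuclei fell on collagens, or 0.304% (0.297 to 0.312). In the standard nuclei the number was 6859, or 0.496% (0.484 to 0.508). The intervals of the 2 shares did not overlap, and the standard nuclei were higher. As a share of protein-coding UMIs the order was the opposite, at 1.05% in the in situ polyadenylated and 0.893% in the standard nuclei. Fibrillar genes held 80.4% of collagen UMIs in the former and 81.4% in the latter. Type IV genes held 1.06% and 0.904%, and the other collagens held 18.5% and 17.7%. The make-up of the collagen pool by class was thus within about 1 percentage point between libraries.

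Of the 44 members, 18 had at least 20 kallisto UMIs in both libraries together, 15 had 1 to 19 and 11 had none. The 11 without a UMI were Col2a1, Col4a3, Col4a4, Col4a6, Col6a5, Col6a6, Col8a2, Col9a1, Col10a1, Col15a1 and Col23a1. Among these are some collagens of cartilage (Col2a1, Col9a1 and Col10a1) and some type IV chains of kidney glomerulus (Col4a3 and Col4a4). Other cartilage chains did have UMIs, with Col11a2 at 46 in the in situ polyadenylated and 24 in the standard nuclei. Col11a1 had 4 and 5, Col9a3 had 1 and 3, Col9a2 had 0 and 1, and the type IV chain Col4a5 had 19 and 23. The floor used for a count of 0, 3 UMIs, is a level of 1.52 CPM in the in situ polyadenylated and 2.17 CPM in the standard nuclei, and the exact 95% upper limits are 1.87 and 2.67 CPM. The 15 low members were Col6a4, Col8a1, Col9a2, Col9a3, Col11a1, Col13a1, Col14a1, Col17a1, Col19a1, Col20a1, Col22a1, Col24a1, Col25a1, Col26a1 and Col28a1. At the edge of the 20-UMI minimum, Col27a1 had 24 UMIs and Col8a1 had 19.

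Type I collagen is the major fibril of most tissues and is built from the products of Col1a1 and Col1a2. Col1a2 (ENSMUSG00000029661, chr6:4504814-4541555 on the plus strand of GRCm39) had 2157 UMIs in in situ polyadenylated nuclei and 2956 in the standard nuclei, or 1093 and 2137 CPM. Col1a1 (ENSMUSG00000001506, chr11:94827050-94843868, plus strand) had 674 and 655 UMIs, or 341 and 474 CPM. Both genes were thus lower in CPM after in situ polyadenylation, Col1a2 by more than Col1a1. Per kb of exon, the union of the exons of all annotated transcripts, Col1a2 stood at 86.4 CPM in the in situ polyadenylated and 169 CPM in the standard nuclei, and Col1a1 at 52.0 and 72.1. These were the highest per-kb levels of the family in each library.

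Type V and type III collagens co-assemble with type I, and type V sets fibril diameter. Col5a1 (chr2:27776397-27929526, plus strand) had 782 UMIs (396 CPM) in the in situ polyadenylated and 704 UMIs (509 CPM) in the standard nuclei. Col3a1 (chr1:45350698-45395840, plus strand) had 651 UMIs (330 CPM) and 738 UMIs (534 CPM). Col5a2, which lies beside Col3a1 on the opposite strand (chr1:45412554-45542442), had 306 and 311 UMIs, and Col5a3, a further type V chain, had 199 and 166. Per kb of exon in the standard nuclei, Col5a1 (58.3 CPM, 54.1 to 62.8) and Col3a1 (51.9 CPM, 48.2 to 55.8) followed Col1a1, and the intervals of these 2 overlapped. In the in situ polyadenylated nuclei, Col5a1 (45.4 CPM per kb, 42.3 to 48.7) overlapped with Col1a1 (48.1 to 56.1) and lay above Col3a1 (32.1, 29.7 to 34.7). Col11a2, a minor fibrillar chain best known from cartilage, had 46 and 24 UMIs, and Col27a1 had 9 and 15.

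Among the other collagens, Col6a3 led. Type VI collagen forms beaded filaments near the cell surface and is abundant in muscle. Col6a3 had 438 UMIs (222 CPM) in the in situ polyadenylated and 376 UMIs (272 CPM) in the standard nuclei, Col6a1 had 78 and 99 UMIs, and Col6a2 had 16 and 19. Col18a1, a basement membrane proteoglycan core whose fragment is endostatin, had 159 and 260 UMIs. Col16a1, a fibril-associated collagen, had 137 and 167 UMIs, Col12a1, of the same group, had 108 and 123, and Col7a1, the anchoring fibril collagen of skin, had 162 and 140. Per kb of exon, the order in the standard nuclei was Col18a1 (26.6 CPM), Col6a3 (22.6), Col5a2 (20.1), Col5a3 (17.4), Col16a1 (16.7), Col6a1 (12.2), Col7a1 (9.83) and Col12a1 (5.81). Up to Col7a1, each overlapped in interval with the next. In the in situ polyadenylated nuclei Col18a1 stood lower in that order, at 11.4 CPM per kb (9.63 to 13.2), below Col6a3 (18.4, 16.7 to 20.2).

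Type IV chains were near the limit of detection. Col4a1 had 22 UMIs in the in situ polyadenylated and 19 in the standard nuclei, Col4a2 had 23 and 20, and Col4a5 had 19 and 23. Per kb of exon these 3 lay between 1.03 and 2.01 CPM, and their intervals overlapped in each library. Col4a1 and Col4a2 lie on opposite strands of chromosome 8, and their products join in 1 molecule. The annotated start sites of these genes are 355 nt apart, and their 5′ ends overlap. The UMI ratio of Col4a2 over Col4a1 was 1.05 in both libraries (0.557 to 1.97 and 0.533 to 2.09). The other neighbour pairs of the class are Col4a3 with Col4a4 (start sites 158 nt apart, also overlapping) and Col4a5 with Col4a6 (1282 nt). Of these genes Col4a5 alone had a kallisto UMI in the retained nuclei.

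**Figure D1:**
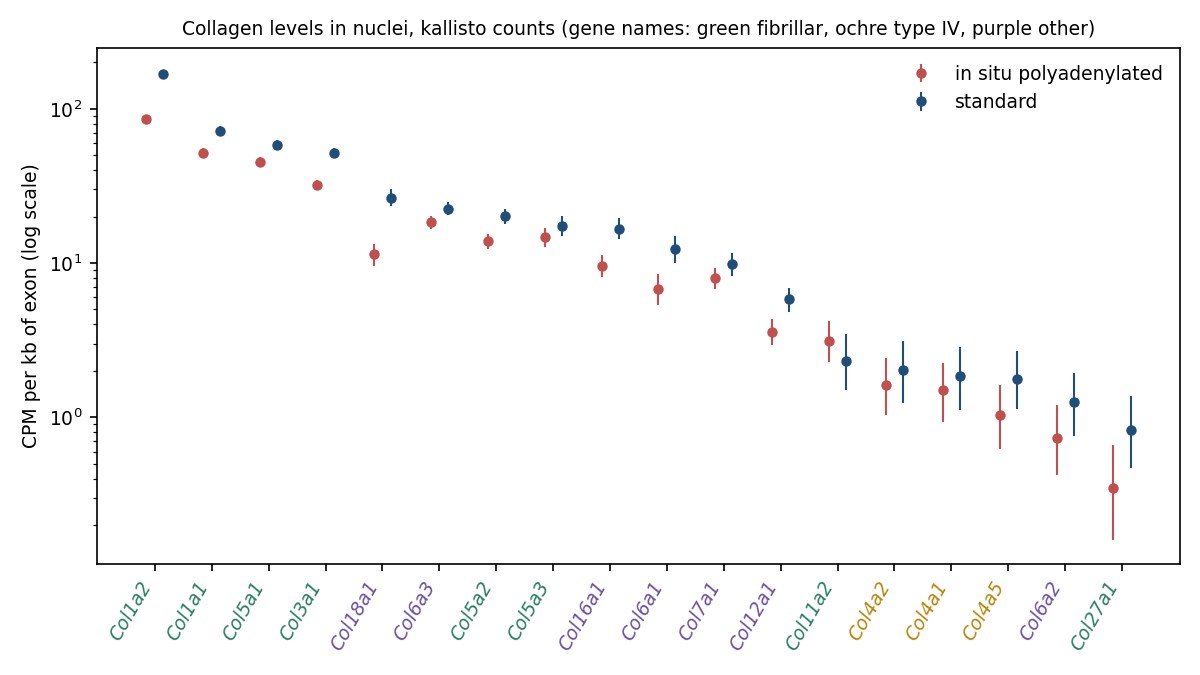
Level of each of the 18 collagens with at least 20 kallisto UMIs, in CPM per kb of exon on a log axis, in in situ polyadenylated (red) and standard (blue) nuclei, 1 library each. Bars are exact 95% counting intervals, and Col11a2 is the member drawn higher in the in situ polyadenylated library.

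Against the median protein-coding gene, collagens as a family stood higher after in situ polyadenylation. The log2 CPM ratio of all collagens together, in situ polyadenylated over standard, was -0.70 (-0.75 to -0.65), which is 0.49 (0.44 to 0.54) relative to the median gene. The relative ratio was 0.47 (0.41 to 0.53) for the fibrillar class, 0.72 (0.20 to 1.25) for type IV and 0.56 (0.44 to 0.67) for the other collagens. The 3 intervals overlapped. Over the 18 members with 20 UMIs, the median relative ratio was 0.58 and 16 lay above 0, whereas the median over all 8011 protein-coding genes tested was -0.21. In plain CPM, 17 of these 18 members were lower in the in situ polyadenylated library. In these kallisto values the sign thus depended on the denominator for 15 of the 18. Col11a2 was above 0 and Col18a1 and Col27a1 were below 0 both ways. The plain interval of Col11a2 (-0.32 to 1.20) and the relative intervals of Col18a1 and Col27a1 included 0. How far both libraries would differ on repetition cannot be read from 1 library each.

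A relative log2 ratio above 1, that is over 2-fold, was reached by 1 of 18 collagens, Col11a2, where 2.76% of all protein-coding genes tested reached it. None was under -1, against 10.5% of all genes. The whole counting interval lay above 0 for 11 of 18 collagens, against 7.71% of all genes, and under 0 for none, against 16.6%. The interval rule calls deeply counted genes more readily, and among genes with at least 100 UMIs it was met by 10 of 12 collagens and 15.5% of all genes. At that depth a relative ratio above 1 was reached by 0 of 12 collagens, against 2.04%, and an interval under 0 by 0 of 12, against 23%. With 20 to 99 UMIs, 1 of 6 collagens was above 1, against 3.16%. The median relative ratio of those 12 collagens was 0.58 and that of the 2888 genes of this depth was -0.09.

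Col11a2 had the highest relative ratio, 1.62 (0.88 to 2.39), with few UMIs behind it. Of the type V chains, Col5a3 stood at 0.94 (0.64 to 1.25), Col5a1 at 0.83 (0.68 to 0.98) and Col5a2 at 0.66 (0.42 to 0.89). Col1a1 stood at 0.72 (0.56 to 0.88) and Col3a1 at 0.50 (0.34 to 0.65). Col1a2, the member with the most UMIs, stood at 0.22 (0.14 to 0.30), below each of the preceding 6 genes with no overlap of the intervals. Of the non-fibrillar members, Col6a3 stood at 0.90 (0.70 to 1.10), Col7a1 at 0.89 (0.55 to 1.23), Col12a1 at 0.49 (0.10 to 0.88) and Col16a1 at 0.39 (0.06 to 0.73). Col18a1 stood at -0.04 (-0.33 to 0.25), which overlapped neither Col6a3 nor Col7a1. The intervals of Col4a1, Col4a2, Col4a5, Col6a1, Col6a2 and Col27a1 included 0, as did that of Col18a1.

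**Figure D2:**
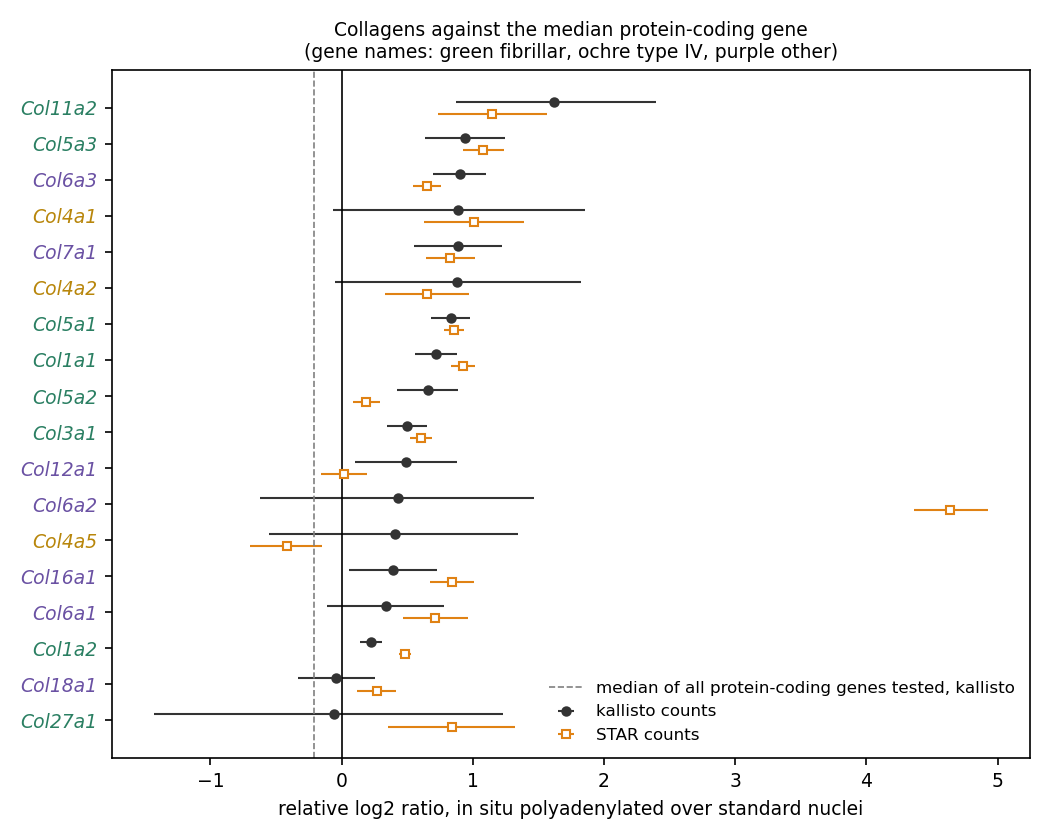
Relative log2 ratio of 18 collagens, in situ polyadenylated over standard nuclei, with 0 at the median protein-coding gene, from kallisto (filled circles) and STAR counts (open squares). Bars are 95% counting intervals, the dashed line is the median of all protein-coding genes tested (-0.21), and Col6a2 stands far to the right (4.64) with STAR counts alone.

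The ratio of the type I chains can be set out within each library, where the library total cancels. In UMIs, Col1a2 over Col1a1 was 3.20 (2.93 to 3.49) in the in situ polyadenylated and 4.51 (4.15 to 4.92) in the standard nuclei. In STAR counts it was 3.58 (3.41 to 3.77) and 4.87 (4.64 to 5.10), with the same order of the libraries and no overlap of intervals. Per kb of exon the kallisto ratio was 1.66 and 2.34, and per coding length, with 1390 codons in Col1a2 and 1537 in Col1a1, it was 3.54 and 4.99. The size of the ratio between these genes thus depended on the length used, and the order of the libraries did not, since the same length enters both. Type I molecules mostly hold the product of Col1a1 in excess of that of Col1a2, and RNA counts in nuclei do not measure either protein. For type V, Col5a1 over Col5a2 was 2.56 (2.24 to 2.93) and 2.26 (1.98 to 2.60) in kallisto UMIs, with overlapping intervals, and 2.19 (2.05 to 2.35) and 1.38 (1.31 to 1.46) in STAR UMIs, without overlap. For type VI, Col6a3 over Col6a1 was 5.62 (4.40 to 7.24) and 3.80 (3.04 to 4.79) in kallisto UMIs. In STAR UMIs it was 5.15 (4.49 to 5.93) and 5.37 (4.75 to 6.08). The intervals overlapped in both matrices, so no order of the libraries can be read for this pair.

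In the STAR matrix, which lists 1328 of the in situ polyadenylated and all 1123 standard nuclei, 39 members had at least 20 UMIs, 4 had 1 to 19 and Col10a1 had none. The 4 were Col8a2, Col9a1, Col9a2 and Col15a1. The log2 CPM ratio of the median protein-coding gene, over 7752 genes, was -1.92. Relative to it, the ratio was 0.61 (0.58 to 0.64) for the fibrillar class, 0.37 (0.20 to 0.53) for type IV and 4.40 (4.37 to 4.44) for the other collagens. The last value rested on a few genes of the in situ polyadenylated library. Without Col6a6, Col13a1 and Col6a2, a set left out after seeing the data, it was 0.46 (0.40 to 0.52), and that of all collagens fell from 2.56 to 0.57. Of the 18 members with enough UMIs in both matrices, 15 lay above 0 in both. Col18a1 (0.27, 0.12 to 0.42) and Col27a1 (0.84, 0.35 to 1.32), below 0 in kallisto counts, lay above 0 in STAR counts. The plain log2 CPM ratio of Col11a2 was -0.77 (-1.19 to -0.36) in STAR counts. Above a relative ratio of 1 were 17 of 39 members, against 13.1% of all genes tested, and under -1 was 1, against 2.21%. The interval lay above 0 for 30 of 39 members, against 27.7%, and under 0 for 2, against 20.4%.

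Many of the 17 were thinly counted. Among genes with 20 to 99 STAR UMIs, 11 of 17 collagens and 31.1% of all genes lay above 1, and the medians were 1.35 and 0.45. The 11 were Col2a1, Col4a3, Col4a4, Col6a4, Col9a3, Col14a1, Col17a1, Col19a1, Col22a1, Col25a1 and Col28a1. The highest, Col17a1, rested on 17 UMIs in the in situ polyadenylated and 5 in the standard nuclei. With at least 100 UMIs, 6 of 22 collagens and 6.35% of all genes lay above 1, and the interval lay above 0 for 19 of 22, against 25.9%, and under 0 for 2, against 26.7%. Besides Col6a6, Col13a1 and Col6a2, those above 1 were Col11a2 (1.15), Col5a3 (1.08) and Col4a1 (1.01). At the low end, Col8a1, a short-chain collagen of vessel and corneal membranes, had 199 UMIs in the in situ polyadenylated and 821 in the standard nuclei, a relative ratio of -1.01 (-1.24 to -0.79). In kallisto counts Col8a1 had 7.01 and 12 UMIs (3.55 and 8.68 CPM), under the minimum for a ratio. Col4a5, on chromosome X, had 152 and 416 UMIs, a relative ratio of -0.42 (-0.70 to -0.15), where the kallisto value was 0.40 (-0.55 to 1.34).

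Col6a6 was the collagen with the most STAR UMIs in in situ polyadenylated nuclei and was absent from the kallisto counts. It had 50324 STAR UMIs in those nuclei against 56 in the standard nuclei, and 0 kallisto UMIs in both. It was present in 1325 of 1328 in situ polyadenylated nuclei, with a median of 29 UMIs, and in 55 of 1123 standard nuclei. It made up 62.2% of all collagen STAR UMIs of the in situ polyadenylated nuclei. Col13a1, a transmembrane collagen of the neuromuscular junction, had 8917 and 53 STAR UMIs, with 0 and 3 in the kallisto matrix. Col6a2 had 1401 and 115 STAR UMIs, with 16 and 19 in the kallisto matrix. The relative STAR ratios of these 3 genes were 10.85, 8.43 and 4.64.

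Sequence in an intron of Col6a6 resembled ribosomal RNA. A search of the 44 gene bodies with a 600 nt ribosomal RNA-like stretch at the start of the GRCm39 scaffold MU069435.1 and with the 18S-like gene Rn18s-rs5 gave 1 gene with an alignment of at least 50 nt. It was Col6a6, with 253 nt at 93.7% identity on the strand of the gene, at chr9:105696503-105696755 (minus strand), which overlaps no annotated exon. Both sequences are shown for comparison, and the longest run of identical bases, 88 nt, is in capitals.
Col6a6 intron: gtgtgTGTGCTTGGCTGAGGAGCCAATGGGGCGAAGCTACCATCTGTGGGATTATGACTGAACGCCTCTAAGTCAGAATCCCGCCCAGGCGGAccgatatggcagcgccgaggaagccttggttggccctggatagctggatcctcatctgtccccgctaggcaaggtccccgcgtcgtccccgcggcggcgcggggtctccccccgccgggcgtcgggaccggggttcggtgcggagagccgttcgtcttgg
rRNA-like stretch: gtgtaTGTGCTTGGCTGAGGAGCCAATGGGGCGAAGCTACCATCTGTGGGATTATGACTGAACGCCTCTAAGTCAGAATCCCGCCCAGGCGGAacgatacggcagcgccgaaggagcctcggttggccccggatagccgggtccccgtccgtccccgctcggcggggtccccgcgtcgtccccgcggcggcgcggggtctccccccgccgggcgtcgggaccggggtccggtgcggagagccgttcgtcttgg
The kallisto index holds transcripts and no introns, and reads with up to 50 alignments were kept in the STAR route. Its part in the Col6a6 count was not tested, since the reads were not used here. No such alignment was found in Col13a1 or Col6a2, and no annotated gene overlaps Col13a1 or Col6a2 on its own strand. The source of their STAR counts was not tested, and a complete large-subunit rRNA was not searched.

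**Figure D3:**
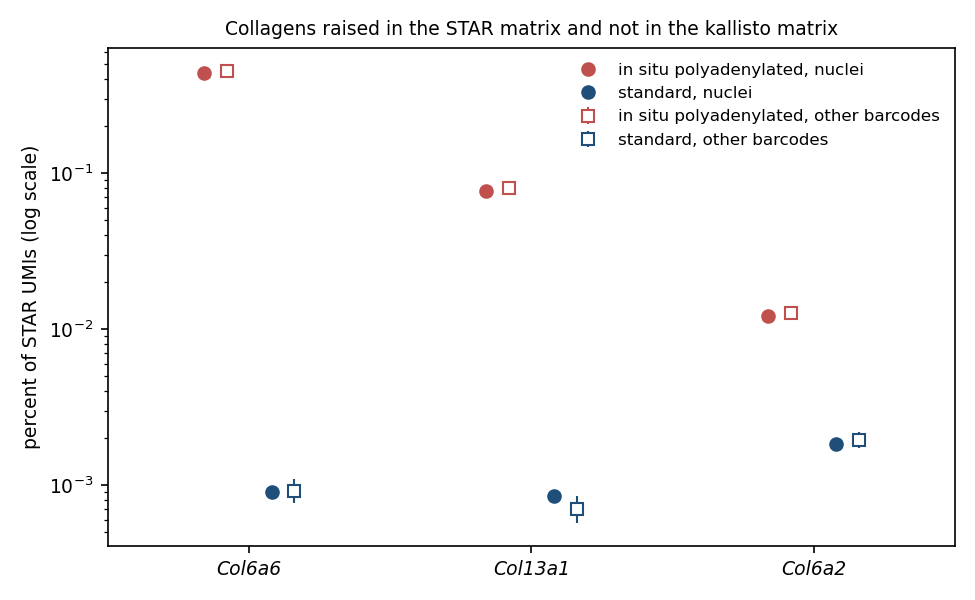
Percent of STAR UMIs on Col6a6, Col13a1 and Col6a2 (log axis) in retained nuclei (filled circles) and in the other barcodes the matrix lists (open squares, with 95% binomial intervals), by library. Each gene is at about the same percent in nuclei and other barcodes of a library, and far higher in the in situ polyadenylated library (0.436% against 0.000898% for Col6a6 in nuclei).

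For members counted by both routes, STAR gave more UMIs than kallisto, and the excess was smaller for collagens than for most genes. Over the same in situ polyadenylated nuclei, the median STAR over kallisto ratio was 3.38 for 15 collagens and 4.46 for 4640 protein-coding genes. In the standard nuclei it was 4.00 for 15 collagens and 5.20 for 6746 genes. The ratio ran with the length of the gene body over that of its exons, with a Spearman rho of 0.79 and 0.84 across these collagens, which share the libraries and are not independent replicates. Over genes in the same range of that length ratio, the medians were 4.86 and 6.22. Col1a1, whose body is 2.56 times its exons, gave 2.86 and 3.16. In the standard nuclei Col4a2 gave 9.45 and Col4a5 18.1, and introns make up 94.8% and 95.6% of these genes. Whether intron reads were counted in the STAR route was not stated in the labels or methods.

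**Figure D4:**
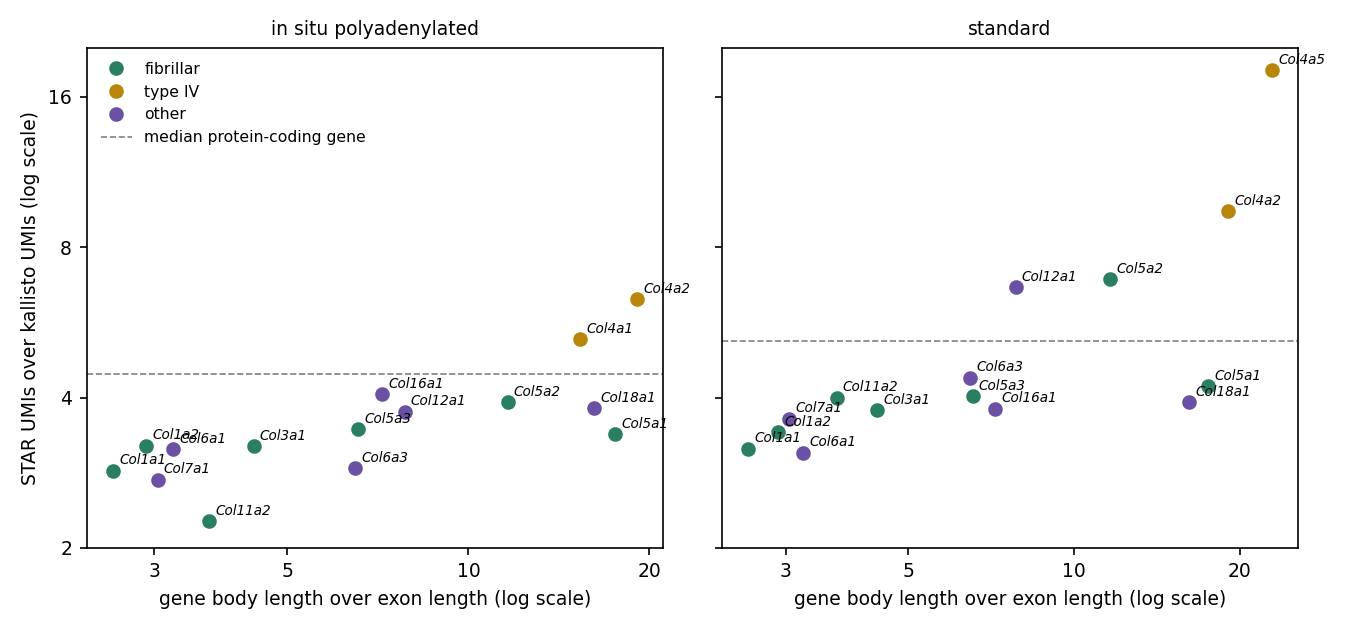
STAR UMIs over kallisto UMIs of collagens with at least 20 kallisto UMIs in a library (15 in each panel) against gene body length over exon length, both on log axes. The dashed line is the median protein-coding gene (4.46 and 5.20), and most collagens lie under it except long type IV genes and, in the standard library, Col5a2 and Col12a1.

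A gene's share in nuclei can be set against that in barcodes with 1 to 100 UMIs, which the study's filter removes. The in situ polyadenylated library had 229964 such barcodes (2055642 UMIs) and the standard library had 226358 (2394255 UMIs). Collagens made up 0.289% (0.282 to 0.296) of their UMIs in the former and 0.441% (0.433 to 0.450) in the latter. Relative to the median protein-coding gene, nuclei over low-UMI barcodes gave a log2 ratio of 0.16 (0.11 to 0.21) and 0.23 (0.19 to 0.27) for all collagens. These signs depended on the barcodes chosen: against barcodes with over 100 to 500 UMIs the values were -0.21 and -0.0473, and with nuclei of at least 1500 UMIs the first was -0.00855. Against barcodes with 1 to 100 UMIs, the fibrillar class was at 0.21 (0.15 to 0.27) and 0.25 (0.20 to 0.30). The shares of collagen UMIs in low-UMI barcodes were thus close to those in nuclei in both libraries. For type IV the signs differed, at -0.74 (-1.20 to -0.29) in the in situ polyadenylated library, on 64 UMIs in nuclei and 118 in low-UMI barcodes, and 0.52 (0.02 to 1.02) in the standard library, on 62 and 78.

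Col1a2 was enriched in nuclei to a like degree in both libraries, at 0.40 (0.31 to 0.49) and 0.42 (0.35 to 0.49). Col5a3 was at 0.47 (0.16 to 0.78) and 0.46 (0.16 to 0.76). Col1a1 was at 0.37 (0.20 to 0.53) in the in situ polyadenylated and 0.04 (-0.10 to 0.18) in the standard library, and Col5a1 was the other way, at 0.05 (-0.10 to 0.19) and 0.34 (0.20 to 0.48). Col12a1, at -0.65 (-1.0 to -0.30) and -0.32 (-0.64 to -0.01), was lower in nuclei in both. Col4a2 was at -0.62 (-1.43 to 0.16) on 23 and 39 UMIs and at 1.27 (0.23 to 2.34) on 20 and 15 UMIs. Of 17 members with 20 UMIs in the in situ polyadenylated library, 4 had the interval above 0, against 6.41% of all genes, and 3 under 0 (Col3a1, Col4a1 and Col12a1), against 19.4%. Of 20 members in the standard library, 6 had it above 0, against 9.64%, and 1 under 0, against 16.9%. Past 2-fold were none in the former, against 1.12% above and 13.7% below. In the latter Col4a2 alone was above, against 1.79%, and none was below, against 7.43%. The interval rule calls deeply counted genes more readily. Shares of all genes at matched depth were not computed for nuclei over low-UMI barcodes.

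**Figure D5:**
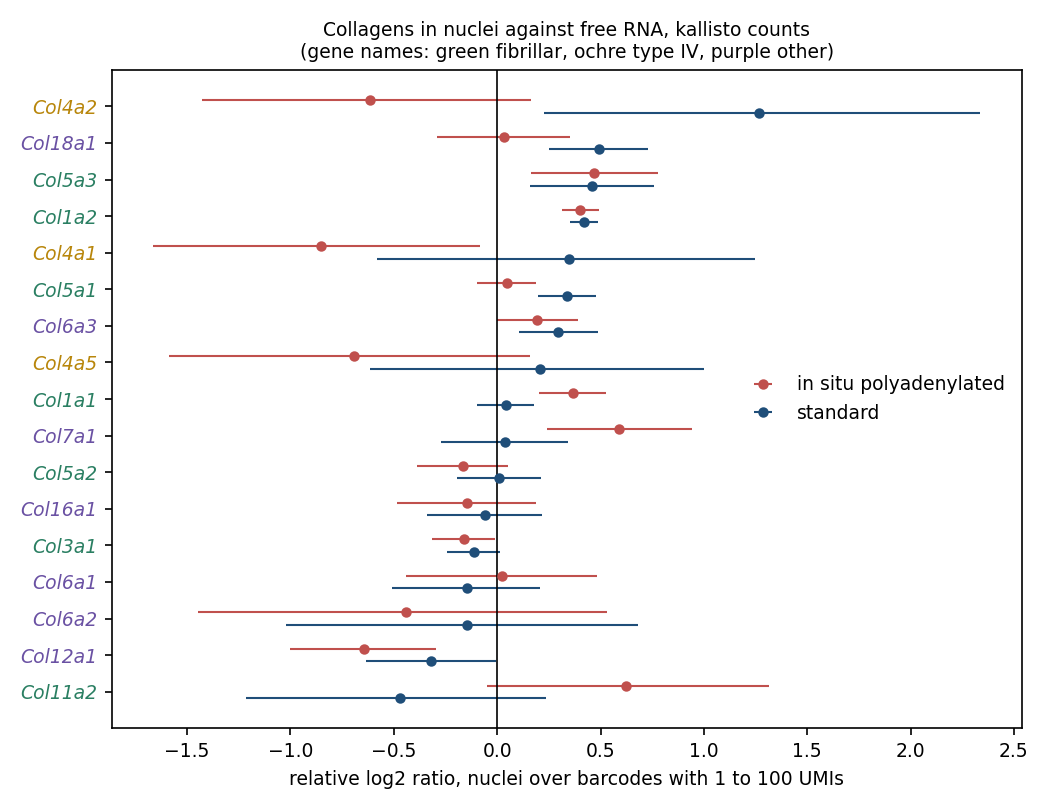
Relative log2 ratio of 17 collagens, nuclei over low-UMI barcodes (1 to 100), for the in situ polyadenylated (red) and the standard (blue) library, with 95% counting intervals and 0 at the median protein-coding gene. Col1a2 and Col5a3 lie right of 0 in both libraries, Col12a1 left of 0 in both, and the 3 type IV genes left in the former and right in the latter.

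Most nuclei held a collagen UMI. After thinning each nucleus to 750 UMIs, which left out 0 and 3 nuclei, 85.8% (83.9 to 87.7) of the in situ polyadenylated and 96.2% (94.9 to 97.2) of the standard nuclei had at least 1, against 93.6% and 98.0% unthinned. The median thinned nucleus held 2 and 3 collagen UMIs, and the highest 20 and 11. Col1a2 was seen in 50.0% (47.2 to 52.7) and 74.0% (71.3 to 76.6) of thinned nuclei, Col5a1 in 26.8% and 31.3%, Col3a1 in 22.5% and 29.9%, and Col1a1 in 17.8% and 26.3%. A type IV UMI was seen in 2.7% and 3.66%. For scale, a UMI of the immune list, which myoblasts should lack, was seen in 0% and 0.536% of thinned nuclei. The endothelial list was seen in 0.300% and 1.70%. The fibroblast list was seen in 1.57% and 4.29%, which in the standard nuclei was above type IV. As these are counts of cells with a UMI, and low-UMI barcodes hold collagens at nearly the same share, they do not measure the fraction of cells that express a gene. The spread between nuclei was somewhat over that of Poisson counts for type I, with a variance over mean of 1.70 for Col1a1 and 1.48 for Col1a2 in the in situ polyadenylated and 1.43 and 1.36 in the standard nuclei. For Col3a1 it was 1.13 and 1.19, for Col5a1 1.14 and 1.05, for Col6a3 1.13 and 1.12, and for Col5a2 0.97 and 1.01.

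Each list of genes that process or bind collagens had a median under that of the collagens (0.58). These are again kallisto counts relative to the median protein-coding gene. The basement membrane list, described below, came nearest, with a median of 0.28. Of 13 hydroxylases, glycosyltransferases and isomerases with 20 UMIs, which modify the chains in the endoplasmic reticulum, the median was -0.32. None had the interval above 0, against 7.71% of all genes (15.5% of those with at least 100 UMIs). In 3 (Ppib, Plod2 and Fkbp10) it lay under 0, against 16.6% of all genes (23% of those with at least 100 UMIs). The highest were Plod1 (0.47) and P3h3 (0.16), and the lowest were Ppib (-1.43, 39 and 168 UMIs), the isomerase cyclophilin B, and P4ha3 (-1.0). Of 8 chaperone, export and translation genes the median was -0.24. In 2 (Mia3 and Hspa5) the interval lay under 0, against 16.6% of all genes (23% of those with at least 100 UMIs). Sec24d (0.76) and Creb3l1 (0.34) were highest and Mia2 (-0.50) and Mia3 (-0.48), of the collagen export machinery, lowest. The propeptidases and crosslinkers (7 genes) had a median of 0.07, from Lox (0.42) and Adamts14 (0.27) down to Loxl3 (-0.26) and Loxl2 (-2.0, 4.73 and 31.7 UMIs). The collagenases and their inhibitors (5 genes) had a median of -0.29, with Timp2 (0.02) and Timp3 (0.01) highest and Mmp2 (-0.35) and Mmp14 (-0.69) lowest.

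Among matrix partners, the basement membrane list had the highest median, 0.28 over 11 genes, and 4 of them, Lama5, Lamb2, Lamc1 and Hspg2, had the interval above 0, against 7.71% of all genes (15.5% of those with at least 100 UMIs). Lamc1 (0.76) and Lamb2 (0.73), laminin chains, were highest, and Agrn (-0.25) and Lamb3 (-0.47) lowest. The fibril-associated list (10 genes) had a median of -0.15, with Thbs1 (0.62) and Thbs2 (0.34) highest and the proteoglycans Vcan (-0.62) and Bgn (-1.12) lowest. The interval lay above 0 for Thbs1, against 7.71% of all genes, and under 0 for Bgn, Vcan and Fn1, against 16.6% (15.5% and 23% of those with at least 100 UMIs). Fn1, the fibronectin gene, had 602 UMIs in the in situ polyadenylated and 1099 in the standard nuclei. The 5 collagen receptors had a median of -0.21, with Itgb1 (-0.04) and Itga10 (-0.15) highest and Ddr2 (-0.26) and Mrc2 (-0.62), an endocytic collagen receptor, lowest. The median of all genes tested was -0.21.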

How the data were processed

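Nuclei of the C2C12 line were profiled with droplet-based 3′ sequencing, 1 library per group. The authors trimmed reads with cutadapt 3.4 and quantified them on GRCm39 with GENCODE M28. Deposited kallisto 0.48.0 and bustools 0.41.0 matrices hold estimated counts (expected counts) of UMIs for every barcode, strand-aware. Deposited STAR 2.7.10a matrices hold whole-number UMI counts by the authors for a subset of barcodes, chosen by a rule not given in the sources used here. Neither is normalized. Reads shared by similar genes can be moved between genes by either route.

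UMIs of retained nuclei were summed per gene, and kallisto sums were rounded for intervals. Shares carry Clopper-Pearson intervals, and ratios the exact conditional interval of 2 Poisson counts (scipy 1.17.1). Genes with at least 20 UMIs in the compared groups together were given a ratio. The floor of a 0 was 3 UMIs. Doublets were not called. Coordinates and lengths are from GENCODE M39, and alignments from BLAST 2.17.0 (word size 16). Promoter and protein sequences were not used here. The code was checked on simulated data: of 8011 genes for in situ polyadenylated over standard nuclei, 100 of 100 raised and 100 of 100 lowered genes were recovered. These genes were moved by a log2 ratio of 2 and called past a relative log2 ratio of 1. Their expected count before the move was at least 50 in the standard library. Recovery of smaller changes or at lower counts was not checked. All members were named, and of each other list the 2 highest and 2 lowest genes, with others named where a count was 5 or fewer or a role was described, chosen after seeing values. The members and lists were chosen with earlier results of these data known.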

Additional observations from a re-analysis of the deposited data

Results flagged for a closer look

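Col6a6 and Col13a1 also had UMIs in barcodes outside the main comparison. In the barcodes of the STAR matrix other than the retained nuclei, Col6a6 made up 0.451% of the UMIs of the in situ polyadenylated library (39223 of 8699003 in 2463 barcodes), against 0.000914% in the standard library (129 of 14117845 in 7351 barcodes). Col13a1 made up 0.0807% against 0.000701%. In the nuclei of the in situ polyadenylated library the same genes stood at 0.436% and 0.0772%. The kallisto matrix held 0 UMIs of Col6a6 in nuclei and in barcodes with 1 to 100 UMIs of both libraries.

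Type IV collagens had a relative log2 ratio, nuclei over barcodes with 1 to 100 UMIs, of -0.74 for the in situ polyadenylated and 0.52 for the standard library. All 3 detected genes, Col4a1, Col4a2 and Col4a5, lay under 0 in the former and above 0 in the latter. The difference was not tested, as there was 1 library per group, and it rests on 15 to 44 UMIs per gene and group. Against barcodes with over 100 to 500 UMIs the class was at -0.58 in the in situ polyadenylated and only 0.0308 in the standard library.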

How the results depend on the processing

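With 1 library per group no replicate could be left out, and no interval covers variation between libraries. No paired analysis was possible because there was 1 library on either side. Class ratios between libraries kept their sign relative to the median gene under every alternative run. With STAR counts the relative ratio was 2.56 for all collagens (0.57 without Col6a6, Col13a1 and Col6a2, an alternative chosen after seeing the data), 0.61 for the fibrillar class and 4.40 for the others, and the log2 CPM ratio of all collagens turned from -0.70 to 0.64. Over protein-coding UMIs that ratio turned to 0.23, and for nuclei over low-UMI barcodes it went from 0.08 to 0.24 (in situ polyadenylated) and 0.17 to 0.23 (standard). It was -0.65 at a minimum of 500 UMIs per nucleus, -0.82 at 1500 and -0.65 without the 5% of nuclei with the most UMIs, and the relative ratio was 0.54 at 500.

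Ratios of nuclei over low-UMI barcodes also turned. Against barcodes with over 100 to 500 UMIs, the relative ratio turned to -0.21 for all and -0.18 for fibrillar collagens, and went to -0.30 for the others, in the in situ polyadenylated library. In the standard library it turned to -0.0473, -0.0384 and -0.0910. Against barcodes with 1 to 10 UMIs it was 0.30 for fibrillar and -1.49 for type IV collagens of the in situ polyadenylated library. For the standard library it was 1.34 for type IV and turned to -0.0849 for the others. Against barcodes with over 100 to 500 UMIs, type IV was at -0.58 in the in situ polyadenylated and 0.0308 in the standard library. With at least 1500 UMIs per nucleus it was -0.00855 for all (turned), 0.0355 for fibrillar and -0.11 for other collagens of the in situ polyadenylated library. For the standard library the values were 0.0572, 0.0810 and -0.0576 (the last turned). At that minimum type IV was at -1.18 in the in situ polyadenylated and 0.29 in the standard library. Unthinned, 93.6% and 98.0% of nuclei held a collagen UMI. The cause of these moves was not tested. Of 72 single-gene comparisons, 60 stayed within the counting interval and 12 moved. Of those 12, 8 moved with STAR counts and 4 at a minimum of 1500 UMIs.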

Other observations

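Collagen genes share repeated codon patterns, so exact overlap between their transcripts was counted. Of 44 members, 21 shared no sequence of 31 nt with the GENCODE M39 transcripts of another gene, and 38 shared under 1% of such sequences. The highest shares were 4.08% for Col6a6 and 4.00% for Col6a5, and each shared 375 with the other. Of the most counted members, Col1a2 shared 0.0773%, Col1a1 0.0703%, Col5a1 0.309%, Col3a1 0.939% and Col5a2 1.27%.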
